A study of Mus musculus with 15 samples.

Results

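The miR-129 arms are the 3 mature mouse microRNAs (miRNAs, short RNAs that lower the output of messenger RNAs) that the array design lists for the genes Mir129-1 and Mir129-2: mmu-miR-129-5p, mmu-miR-129-1-3p and mmu-miR-129-2-3p. They were taken by name, as 3 of the 1122 mouse miRNAs on the array and 3 of the 307 tested, and each was read by 2 probes. They had been picked with their levels on these same 15 arrays in view, so their levels and differences are a description and carry no test. RNA came from epiblast stem cells (EpiSC, a primed pluripotent cell type) of Pitx3-GFP mice (Pitx3 is a transcription factor of midbrain dopaminergic neurons, and GFP a green fluorescent reporter protein). All groups share that origin and the same 14-day differentiation. Treated cells, labelled DA cells, received the morphogens SHH (sonic hedgehog) and FGF8 (fibroblast growth factor 8) once the day 5 samples had been taken, and were collected at day 9 and day 14. Control cells, still labelled EpiSC, grew without either morphogen and were collected on the same days, and the day 5 cells had not yet met them. Each of these 5 groups has 3 arrays, and nothing in the labels says that the 3 came from separate cultures, so errors and p-values measure only the spread between these samples. Total RNA of whole cultures was measured, so a larger share of cells carrying a miRNA and more of it per cell cannot be told apart.

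A miRNA gene is transcribed into a hairpin, which is cut into a duplex of a 5p and a 3p arm, and either arm can be loaded into an Argonaute protein and guide it to messenger RNAs through its seed (bases 2 to 8). The miR-129 family is enriched in brain. Of its arms, miR-129-5p represses the potassium channel Kv1.1 and takes part in lowering synaptic strength when neuronal activity is high, and the miR-129-3p arm represses the centrosomal protein CP110 and thereby acts in cilium assembly.

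The sequences show why one 5p name covers 2 genes while the 3p arms have a name each. Mature and hairpin sequences were taken from RefSeq (GRCm38.p6), which matched 2 of the 3 members. Below, the capitals mark the seed of each mature arm.
miR-129-5p: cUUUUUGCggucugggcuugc
miR-129-2-3p: aAGCCCUUaccccaaaaagcau
The 21 bases of miR-129-5p occur in both hairpins, at chr6:29022624-29022644 on the plus strand (Mir129-1) and at chr2:94241419-94241439 on the minus strand (Mir129-2), so a probe for this arm cannot tell the genes apart. The 22 bases of miR-129-2-3p lie at chr2:94241376-94241397 on the minus strand. No other mature mouse miRNA in the table of 1679 names has either seed, but that table holds no mature miR-129-1-3p. The Mir129-1 stretch aligned below has the same seed bases as miR-129-2-3p (AGCCCUU), so that seed cannot be called unique to miR-129-2-3p. The hairpins are shown to place the arms, with the 5p arm and the 3p stretch in capitals.
Mir129-1: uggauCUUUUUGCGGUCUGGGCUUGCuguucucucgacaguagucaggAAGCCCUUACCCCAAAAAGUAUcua
Mir129-2: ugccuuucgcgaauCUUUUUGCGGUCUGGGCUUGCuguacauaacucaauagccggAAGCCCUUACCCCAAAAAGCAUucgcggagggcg
Mir129-1 spans 73 bases (chr6:29022619-29022691, plus strand) and Mir129-2 spans 90 bases (chr2:94241364-94241453, minus strand). Between the capitals lie 22 bases in Mir129-1 and 21 bases in Mir129-2. The 3p stretches are aligned next, with the base that differs in capitals.
miR-129-2-3p: aagcccuuaccccaaaaagCau
Mir129-1 stretch: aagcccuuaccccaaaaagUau
They are identical at 21 of 22 bases and differ by C20U, counted from 1 at the 5′ end of miR-129-2-3p and with its base given first. The Mir129-1 stretch is the best match within the hairpin (chr6:29022667-29022688, plus strand) and is not given here as the mature miR-129-1-3p, for which no sequence is printed. In the RefSeq annotation Mir129-1 overlaps no other gene and its nearest protein-coding neighbours are Snd1 and Lep, the gene of the hormone leptin. Mir129-2 overlaps the long non-coding RNA gene Mir670hg and the miRNA gene Mir129b, and Mir129b has no probe on this array.

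Signals are given as a percentage of the array's 75th percentile, taken over the 362 probes above background on all 15 arrays. A probe counted as above background on an array when at least 50% of its 20 replicate spots did, per the scanner software's flag. The 75th percentile ran between 141 and 326 intensity units, 239 to 333 mouse miRNAs were above background per array, no spot was saturated, and arrays of the same group correlated at 0.980 to 0.998. The arrays lay on 2 slides: the first held 8 arrays (day 5, treated day 9, and treated day 14 replicates 1 and 2), and the other 7 (treated day 14 replicate 3 and all controls). Neuronal markers (miR-124-3p, miR-9-5p and miR-9-3p, all 3 above background) summed to 757% to 818% in treated and 1438% to 1533% in control cells at day 9, to 1527% to 1731% in treated and 2423% to 2822% in control cells at day 14, and to 395% to 420% at day 5. Of 11 pluripotency markers 9 were above background on at least 1 array (miR-290-3p and miR-293-3p on none), and their sum was 242% to 346% at day 5 against at most 72.0% in every later group. The glial pair miR-219-5p and miR-338-3p summed to 494% to 522% in treated against 191% to 227% in control cells at day 9. At day 14 their sum was 240% to 301% in treated against 162% to 168% in control cells, and at day 5 it was 321% to 369%. A small part of these sums was miR-338-3p, with group means of -3.62 to -2.86 on the log2 scale. Taken by itself, miR-338-3p was higher in treated than in control cells at day 9 (0.58) and lower at day 14 (-0.40). Only 1 of 4 mesenchymal markers was ever above background (miR-199a-3p, on 6 arrays, with miR-143-3p, miR-145-5p and miR-214-3p on none), and 1 of 4 endodermal ones (miR-375-3p, on 6 arrays, with miR-122-5p, miR-192-5p and miR-194-5p on none). The mesenchymal sum was 11.1% to 12.7% in treated against 2.54% to 3.49% in control cells at day 9, and 8.54% to 12.5% in treated against 0.974% to 4.41% in control cells at day 14. The endodermal sum was 70.0% to 80.4% in treated against 5.10% to 6.68% in control cells at day 9, and 47.8% to 53.3% in treated against 6.85% to 8.43% in control cells at day 14. The part of these cell type markers in the values of the miR-129 arms was not tested.

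The 3p arm of the chromosome 2 gene, miR-129-2-3p, was well above background on every spot of its brighter probe on all 15 arrays. Its signal was 29.1%, 30.9% and 30.6% in treated day 9 cells, against 12.9%, 12.1% and 12.6% in control day 9 cells. At day 14 it was 28.9%, 30.5% and 30.8% in treated cells, against 48.0%, 60.7% and 52.5% in control cells. Before treatment, at day 5, it was 10.7%, 11.4% and 18.1%. Control day 14 was thus the highest group, above every other array. Treated day 9 and treated day 14 came next and overlapped each other, and day 5 and control day 9 were lowest and also overlapped. At day 9 the treated arrays all lay above the control arrays, and at day 14 all lay below them. The dimmer probe gave group means in a like order, at 4.89% in treated and 1.65% in control day 9 cells, 4.76% in treated and 7.76% in control day 14 cells, and 2.53% at day 5 (n = 3 each). It was above background on 6 of 15 arrays: 1 treated day 9 array, 2 treated day 14 arrays (both on the first slide) and the 3 control day 14 arrays.

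The 3p arm of the chromosome 6 gene, miR-129-1-3p, took another course. Its signal was 3.87%, 4.42% and 4.85% in treated day 9 cells, where 5 of 60 spots were above background and no array was, against 9.73%, 8.83% and 9.33% in control day 9 cells, where 59 of 60 spots were. At day 14 it was 7.88%, 8.85% and 8.40% in treated cells, against 24.5%, 31.8% and 30.1% in control cells. At day 5 it was 3.20%, 2.10% and 3.29%, with 0 of 60 spots above background. Control day 14 was again highest, control day 9 and treated day 14 overlapped below it, and treated day 9 and day 5 were not above background and so have no order. At both days, then, every treated array was below every control array. Groups were likewise free of overlap for 67.8% of the 307 miRNAs tested at day 9 and 56.4% at day 14. The dimmer probe was above background on 2 arrays, both of control day 14, where it averaged 5.54% ± 0.219 (SD, n = 3), and it averaged at most 1.51% in the other groups.

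The arm common to both genes, miR-129-5p, was above background on 6 arrays, those of day 14. Its signal at day 9 was 5.00%, 4.75% and 4.64% in treated cells, with 13 of 60 spots above background, and 4.33%, 3.62% and 3.47% in control cells, with 1 of 60 spots. Neither day 9 group had an array above background, so no fold is given between them. At day 14 it was 5.46%, 6.20% and 6.03% in treated cells, with 47 of 60 spots above background, against 14.8%, 19.5% and 16.4% in control cells, with all 60 spots. Day 5 gave 1.79%, 1.52% and 1.55% with 0 of 60 spots. The treated day 14 arrays lay just over the floor of 5.31% that was set under all values before logarithms were taken, and the control day 14 arrays lay well over it. The dimmer probe was above background only on the 3 control day 14 arrays, where it averaged 10.5% ± 1.73, against 3.17% ± 0.309 in treated day 14 cells (SD, n = 3 each).

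**Figure D1:**
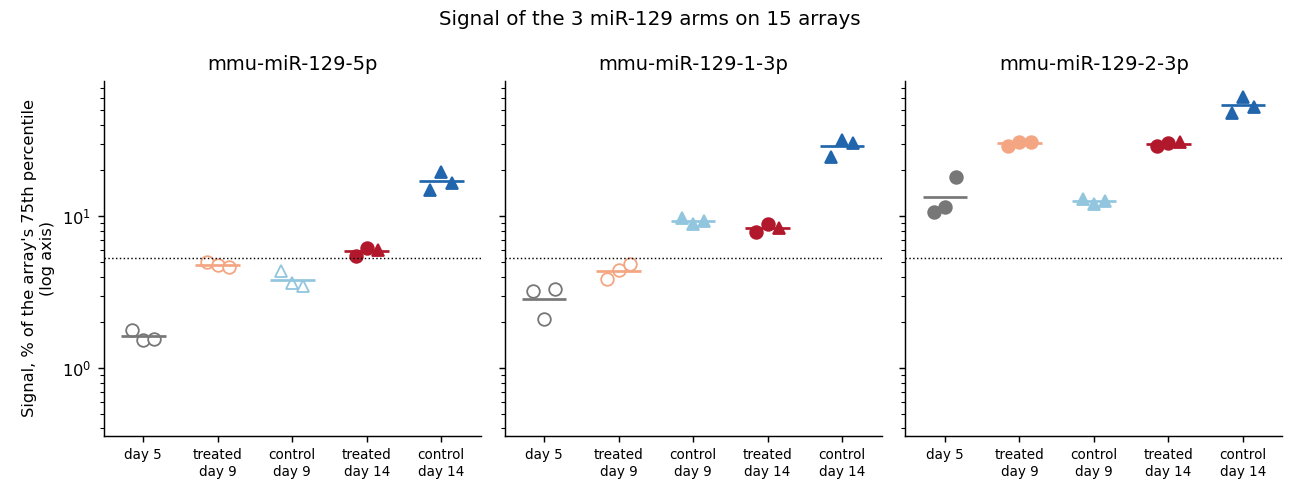
Signal of each miR-129 arm (percent of the array's 75th percentile, log axis) in the 5 groups, 1 point per array and a line at the group mean; filled points were above background, open points were not, circles are slide 1 and triangles slide 2, and the dotted line is the floor of 5.31%. For miR-129-2-3p the treated day 9 arrays (29.1% to 30.9%) lie above the control day 9 arrays (12.1% to 12.9%), whereas for miR-129-1-3p the treated day 9 arrays (3.87% to 4.85%) lie below the control day 9 arrays (8.83% to 9.73%).

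**Figure D2:**
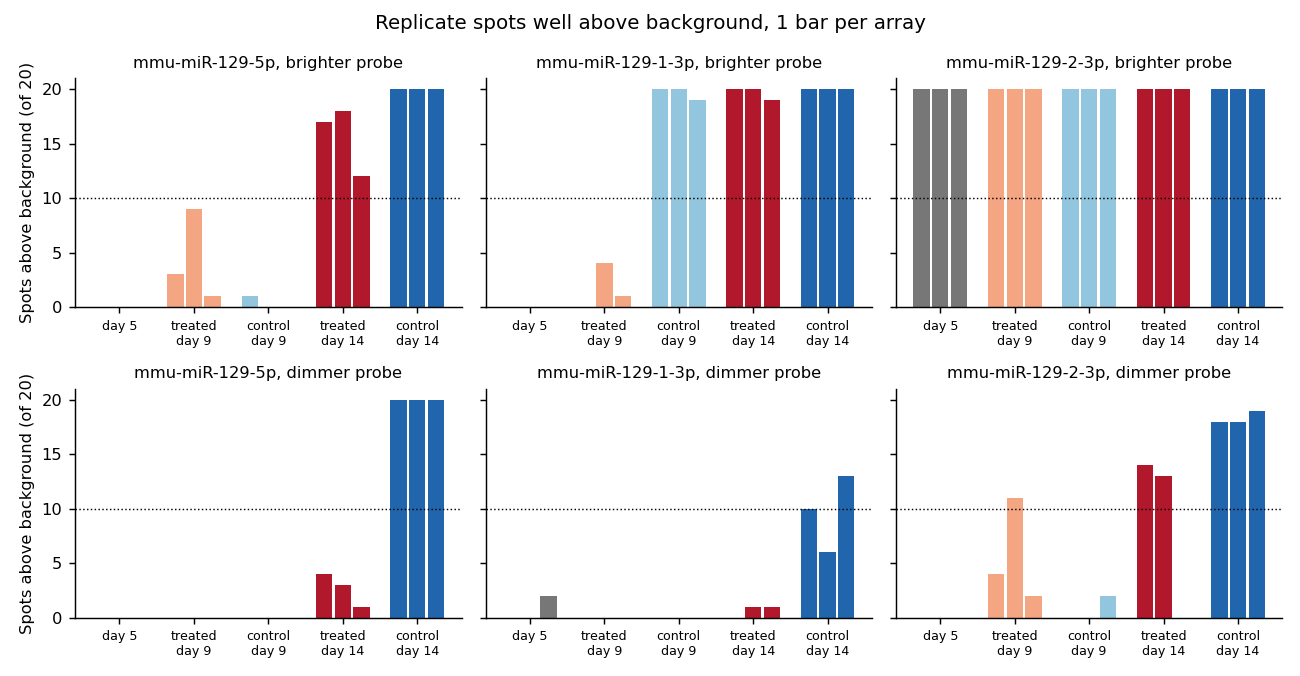
Number of the 20 replicate spots well above background for the brighter probe (top) and dimmer probe (bottom) of each arm, 1 bar per array in 5 groups of 3; the dotted line marks the 50% that counted as above background, and a missing bar is 0 spots. All 20 spots of the brighter miR-129-2-3p probe passed on each array, while for miR-129-1-3p the treated day 9 arrays had 5 of 60 spots and the control day 9 arrays 59 of 60.

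The first comparison asks how the arms differed between treated and control cells at day 9, 4 days after the day 5 samples. It gave the 3p arms opposite directions. On the log2 scale miR-129-2-3p averaged -1.73 ± 0.05 in treated and -3.00 ± 0.05 in control cells (SD, n = 3 each), a difference of 1.27 (limma SE 0.15), or 2.41-fold higher in treated cells. By contrast, miR-129-1-3p was at the floor of -4.23 in treated cells and at -3.43 ± 0.07 in control cells (SD, n = 3), a difference of -0.81 (SE 0.09), and at least 1.56-fold lower in treated cells. That bound sets the control mean against the dimmest probe still above background on each treated array. The SE of miR-129-1-3p and miR-129-5p is too small, since a group at the floor has no spread. Of the 3 arms 2 passed limma's adjusted p of 0.05 at day 9, where 53.4% of the 307 miRNAs did. The median miRNA was 0.21 higher in treated than in control cells on this scale, and relative to it miR-129-2-3p was 1.06 higher and miR-129-1-3p was at -1.02. Across the 4 scalings tried, these relative differences ran between 0.97 and 1.06 for miR-129-2-3p and between -1.02 and -0.85 for miR-129-1-3p. At day 9 the treated arrays were all on the first slide and the control arrays all on the other, so no value within a slide exists. With slide as a block, estimated through treated day 14, the differences were 1.32 for miR-129-2-3p and -0.80 for miR-129-1-3p. The miR-129-2-3p difference still passed but was smaller with normexp background correction (0.56), a floor 4 times higher (0.51) and the 75th percentile over all probes (0.73). The miR-129-1-3p difference no longer passed with normexp background correction (-0.22), with a floor 4 times higher (0.0, both groups then being at the floor) or with the mean of its 2 probes (-0.03). Normexp added an offset of 50 intensity units, against signals of 8.04 to 23.2 units for this arm at day 9. A constant added to both groups makes a log2 difference smaller, and the share of the offset in the value of -0.22 was not tested. The scanner software's total signal per miRNA, a summary added after the data were seen, gave miR-129-5p a day 9 difference of 1.05.

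At day 14, 9 days after the day 5 samples, all 3 arms were lower in treated cells. The largest difference of the arms was that of miR-129-1-3p, at -3.58 ± 0.08 in treated and -1.81 ± 0.20 in control cells, which is -1.77 (SE 0.09) or 3.42-fold lower in treated cells. For miR-129-5p the means were -4.09 ± 0.10 in treated and -2.57 ± 0.20 in control cells, which is -1.51 (SE 0.09) or 2.86-fold lower. For miR-129-2-3p they were -1.74 ± 0.05 in treated and -0.90 ± 0.17 in control cells, which is -0.83 (SE 0.15) or 1.78-fold lower (SD, n = 3 in each group). All 3 arms passed the threshold, as did 52.1% of the miRNAs tested. Relative to the median miRNA, which was 0.22 higher in treated cells, the differences across the 4 scalings were -2.08 to -1.95 for miR-129-1-3p, -1.73 to -1.57 for miR-129-5p and -1.13 to -1.05 for miR-129-2-3p. Normexp background correction gave smaller differences, -0.82 for miR-129-1-3p and -0.57 for miR-129-5p. With a floor 4 times higher they were -0.43 and, both groups then lying under it, 0.0. On the second slide alone, which held 1 treated and 3 control arrays of day 14, they were -1.77, -1.48 and -0.80 in the same order.

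The effect of treatment on miR-129-2-3p had opposite signs on the 2 days, and its day 14 effect minus its day 9 effect was -2.10 (SE 0.22). For the other arms this quantity is set in part by the floor. The fitted value was -0.97 for miR-129-1-3p, whose treated day 9 arrays were all at the floor, so that any lower level there would bring the value nearer to 0. For miR-129-5p it was -1.51, which is its day 14 effect alone because both day 9 groups were at the floor. All 3 passed the threshold for this interaction, as did 35.2% of the miRNAs tested. With normexp background correction miR-129-5p (-0.64) and miR-129-1-3p (-0.60) no longer did, and neither did miR-129-1-3p with the software's total (-0.63). For miR-129-2-3p normexp gave -1.13 and the higher floor -1.34, both still passing.

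**Figure D3:**
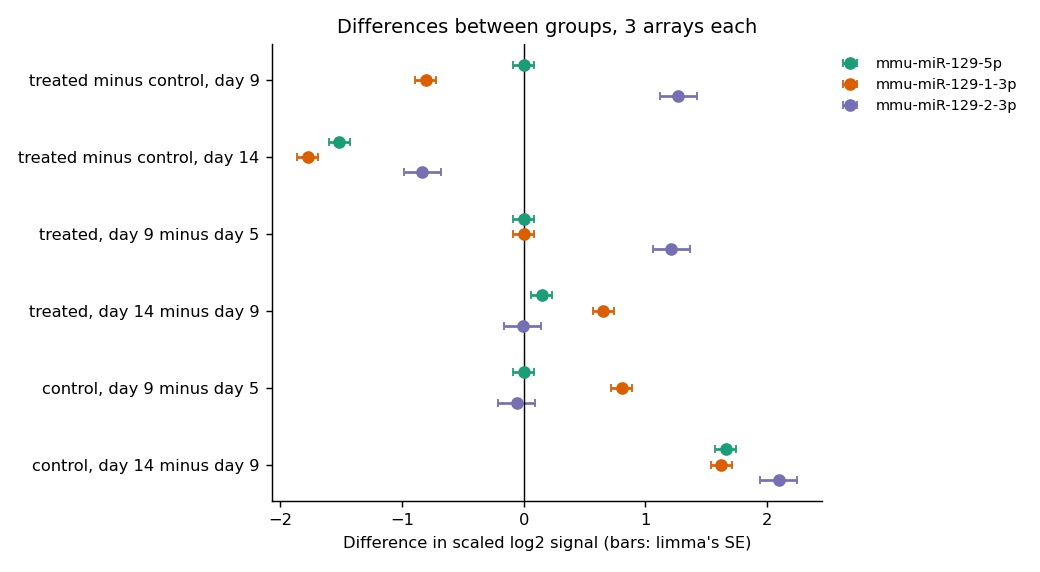
Difference of each miR-129 arm in scaled log2 signal in 6 comparisons of 3 arrays with 3 (points; bars are limma's SE), with 0 marked by the vertical line. At day 9 miR-129-2-3p is at 1.27 and miR-129-1-3p at -0.81, at day 14 all 3 arms are below 0, and a point of exactly 0 means that both groups were at the floor.

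Followed by day in treated cells, miR-129-2-3p was higher at day 9 than at day 5, and miR-129-1-3p was higher at day 14 than at day 9. Between day 5 and day 9 miR-129-2-3p was at -1.73 ± 0.05 on day 9 against -2.94 ± 0.41 on day 5 (SD, n = 3 each), a difference of 1.21 (SE 0.15) or 2.32-fold. These 6 arrays were all on the first slide, and the other arms were below background in both groups. The software's total signal nevertheless gave these a difference, of 1.39 for miR-129-5p and 0.90 for miR-129-1-3p. Between day 9 and day 14 in treated cells miR-129-2-3p differed by -0.01 (95% interval -0.34 to 0.33), while miR-129-1-3p was higher by 0.66 (SE 0.09), which is at least 1.41-fold. For miR-129-5p that difference was 0.15 (SE 0.09), with no fold bound above 1. Within the first slide (2 arrays of day 14 and 3 of day 9) they were -0.02, 0.65 and 0.13. In each of these comparisons 1 of 3 arms passed the threshold, as did 58.6% of the miRNAs between day 5 and day 9 and 67.4% between day 9 and day 14.

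In control cells miR-129-1-3p was higher at day 9 than at day 5, and all 3 arms were higher at day 14 than at day 9. Between day 5 and day 9 miR-129-1-3p was higher on day 9 by 0.81 (SE 0.09), at least 1.34-fold, while miR-129-2-3p differed by -0.06 (95% interval -0.39 to 0.28), a sign that turned under the other scalings (0.12 to 0.26). The day 5 and control day 9 arrays were on different slides, so no within-slide value exists, and with slide as a block the differences were 0.80 and -0.11. Between day 9 and day 14 all 6 control arrays were on the second slide. Here miR-129-2-3p differed by 2.10 (SE 0.15; 4.28-fold), miR-129-1-3p by 1.62 (SE 0.09; 3.08-fold) and miR-129-5p by 1.66 (SE 0.09; at least 2.91-fold). Of the arms, 1 of 3 passed the threshold between day 5 and day 9, where 58% of the miRNAs did, and 3 of 3 between day 9 and day 14, where 53.7% did. Treated and control cells share the day 5 arrays in these comparisons. With normexp background correction the smaller miR-129-1-3p differences, between day 9 and day 14 in treated cells and between day 5 and day 9 in control cells, were 0.02 and 0.15 and no longer passed. Between day 9 and day 14 in control cells normexp gave 1.04 for miR-129-2-3p, 0.62 for miR-129-1-3p and 0.50 for miR-129-5p, and between day 5 and day 9 in treated cells 0.42 for miR-129-2-3p, all still passing.

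The balance of the 3p arms was followed as the log2 signal of miR-129-1-3p minus that of miR-129-2-3p on the same array. Probes differ in brightness, so this value says nothing about which arm is more abundant, and only its differences between groups are read. It was -2.45, -2.54 and -2.53 in treated day 9 cells, against -0.41, -0.45 and -0.43 in control day 9 cells. At day 14 it was -1.87, -1.79 and -1.87 in treated cells, against -0.97, -0.94 and -0.80 in control cells. At day 5 it was -1.01, -1.10 and -1.77. Treated arrays therefore lay below control arrays on both days, with no overlap, and the gap was wider at day 9. In treated day 9 and day 5 cells the first term is the floor, so there the value is an upper bound. The 3p stretches are near-identical. In treated day 9 cells 5 of 60 miR-129-1-3p spots were above background, with miR-129-2-3p at 29.1% to 30.9%. In control day 9 cells 59 of 60 were, with miR-129-2-3p at 12.1% to 12.9%. Both arms were highest in control day 14 cells, miR-129-1-3p at 24.5% to 31.8% and miR-129-2-3p at 48.0% to 60.7%. How far either probe also binds the other arm was not measured, and its part in these values was not tested.

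**Figure D4:**
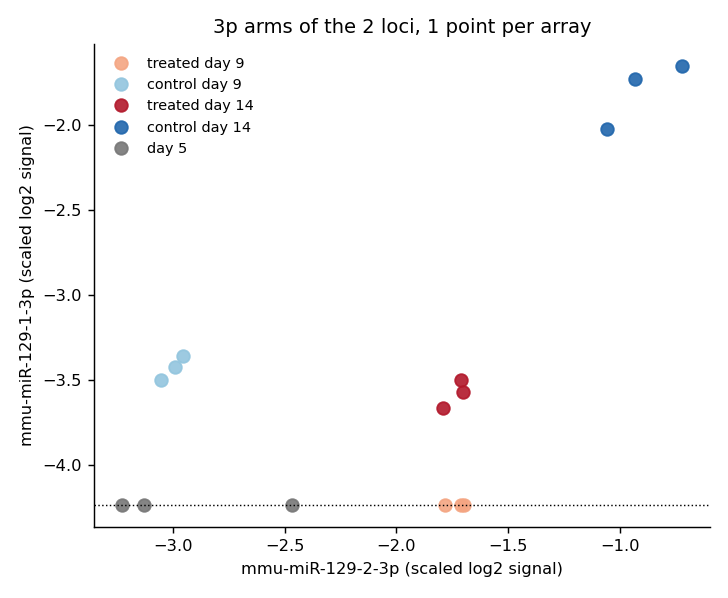
Scaled log2 signal of miR-129-1-3p (vertical) against miR-129-2-3p (horizontal), 1 point per array, coloured by the 5 groups; the dotted line is the floor of -4.23. Treated day 9 arrays sit on the floor at about -1.73 horizontally, control day 9 arrays at about -3.43 vertically and -3.00 horizontally, and the control day 14 arrays are highest on both axes.

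Over the 15 arrays, miR-129-5p correlated with miR-129-1-3p at Pearson r = 0.94 (Spearman rho = 0.72) and with miR-129-2-3p at r = 0.74 (rho = 0.74), and the 3p arms correlated with each other at r = 0.63 (rho = 0.46). These describe 15 arrays in 5 groups that share slides and scaling, with many values at the floor. The miRNAs with the pattern most like that of miR-129-5p were miR-138-5p (r = 0.96, also above background on 6 arrays), miR-326-3p (r = 0.96), miR-188-5p (r = 0.93), miR-128-3p and miR-5099 (r = 0.89 each). For miR-129-1-3p they were miR-128-3p (r = 0.96), miR-188-5p and miR-124-3p (r = 0.95 each), miR-326-3p (r = 0.93) and miR-488-3p (r = 0.92). For miR-129-2-3p they were miR-338-3p and miR-384-5p (r = 0.91 each), miR-101c (r = 0.90), miR-22-3p (r = 0.88) and miR-711 (r = 0.87). None of these last 5 is among the 5 of either other arm, and 3 miRNAs (miR-128-3p, miR-188-5p and miR-326-3p) are on the lists of both miR-129-5p and miR-129-1-3p.

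A list of 18 neuron-enriched miRNAs without the miR-129 arms set these values beside the tissue's other miRNAs. Of the 18, 16 were tested (miR-134-5p and miR-139-5p were not). The list was chosen with earlier results of these data known, so the limma adjusted p-values of its members are a description and no test. In the treatment comparisons rose and fell mean called higher and called lower in treated than in control cells, not a change over time. In treated against control cells at day 9, 4 rose, 7 fell and 5 did not pass, with a median of -0.06 against 0.21 over all miRNAs, of which 37.1% rose and 16.3% fell. At day 14, 3 rose, 11 fell and 2 did not pass, with a median of -0.37 against 0.22 over all miRNAs, of which 38.8% rose and 13.4% fell. Those shares of all miRNAs depend on the scaling: with the 75th percentile over all probes 41 miRNAs rose and 121 fell at day 9, against 114 and 50 here, and 37 rose and 78 fell at day 14, against 119 and 41 here. Of the list, under the other scalings 4 rose and 7 or 8 fell at day 9, and 2 rose and 11 or 12 fell at day 14. When slide was blocked, 4 of the list rose and 4 fell at day 9. Abundant in neurons, miR-124-3p was lower in treated than in control cells, by 1.02 at day 9 (SE 0.07, limma adjusted p = 6.93e-08) and by 1.04 at day 14 (SE 0.07, limma adjusted p = 8.14e-08). Like miR-129-1-3p, it was thus lower in treated cells on both days. The neural progenitor and neuron miRNA miR-9-3p was lower in treated cells by 1.07 (limma adjusted p = 4.57e-06) and by 1.05 (limma adjusted p = 8.44e-06) on these days. Its other arm miR-9-5p was lower by 0.81 (limma adjusted p = 7.15e-06) and by 0.40 (limma adjusted p = 0.00285). The activity-induced miR-132-3p was higher by 2.22 at day 9 (limma adjusted p = 8.32e-09) and lower, at -0.79, at day 14 (limma adjusted p = 0.000257) in treated cells. For the difference between the days 4 of the list were higher and 6 lower, as were 18.6% and 16.6% of all miRNAs. In it, miR-132-3p was at -3.01 (SE 0.19, limma adjusted p = 1.86e-07). For miR-128-3p the differences were -0.26 at day 9 (limma adjusted p = 0.012) and -0.82 at day 14 (limma adjusted p = 1.61e-06), and miR-138-5p, below background at day 9, was at -0.94 at day 14 (limma adjusted p = 1.16e-06). The 3 list members that rose at day 14 are named after their values were seen, and so without a p-value. They were miR-212-3p at 1.23, miR-218-5p at 1.28 and miR-551b-3p at 0.28. Of these, miR-551b-3p lay close to the 0.22 by which the median miRNA was higher, and under each other scaling 2 of the list rose. At day 9 miR-212-3p, which is made from the same cluster as miR-132-3p, was at 2.38 and miR-218-5p at 0.85.

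Over time the list was counted in the same way. In treated cells 8 rose, 0 fell and 8 did not pass between day 5 and day 9, where 38.1% of all miRNAs rose and 20.5% fell, and 12 rose and 2 fell between day 9 and day 14, where 35.8% rose and 31.6% fell. In control cells 9 rose, 1 fell and 6 did not pass between day 5 and day 9, where 25.1% of all miRNAs rose and 32.9% fell, and 15 rose and 0 fell between day 9 and day 14, where 28.7% rose and 25.1% fell. The list's median in that last comparison was 0.95, against 0.01 over all miRNAs, and the miR-129 arms were at 1.62 to 2.10. Under the other scalings the number that rose ran between 5 and 6, 10 and 12, 9 and 10, and 13 and 14, in the same order of comparisons.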

How the data were processed

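The 15 Agilent mouse miRNA arrays carried 1 dye, and their labels put 3 into each of 5 groups. The deposited scanner tables hold spot signals in units of intensity (Cy3, Feature Extraction 11.0.1.1, per the file headers) and, of another kind (other), flags of 0 or 1. The deposited value table is in intensity: in 14 columns 73.3% to 83.8% of probes equal the mean of the background-subtracted spots within 0.1%, so it is linear, on that scale and without centring, and whether its other probes were changed is not given in the sources used here. Its column of treated day 14 replicate 2 repeats replicate 1 (86.0% of probes) and was counted once. Its column medians were 0.100, 0.219 and 0.0452 (day 5), 0.440, 0.542 and 0.381 (treated day 9), -0.0215, 0.103 and 0.217 (control day 9), 0.700, 0.700 and 0.257 (treated day 14) and 0.235, 0.267 and 0.436 (control day 14). That table was an alternative. Use of limma 3.20.9 is named in the submitters' processing notes.

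Background-subtracted signals were averaged over non-outlier spots (3.88% to 5.09% of spots were outliers), divided by the 75th percentile of 362 probes above background on all arrays, floored at -4.23 and put on the log2 scale. The brightest probe stood for a miRNA. The fit took the 307 miRNAs that were above background throughout 1 or more groups, and was made in limma 3.58.1 (R 4.3.3, with versions 1.17.8 of data.table and 2.0.0 of jsonlite; group design, 10 residual and 2.98 prior degrees of freedom), two-sided, with Benjamini-Hochberg adjustment over all 307 and calls below 0.05. The number of arrays limits the precision. The fit was tested on simulated data. Python 3.11.15 with pandas 2.3.3, numpy 2.4.6 and matplotlib 3.10.9 made the figures.

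The members and lists were chosen with earlier results of these data known. Named beside the members were, for each, the 5 miRNAs with the highest Pearson correlation over 15 arrays, and from the neuron-enriched list miR-124-3p, miR-9-5p, miR-9-3p, miR-128-3p, miR-138-5p and miR-132-3p. Alternatives changed the scaling, background correction (normexp, offset 50, on the median spot signal, since no mean signal column is used here), floor, filter, probe rule, slide block, replicate block and each array left out. Chosen after seeing the data were the software's total per miRNA and values within a slide.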

Additional observations from a re-analysis of the deposited data

Results flagged for a closer look

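The treated minus control difference of each arm was compared between days by the interaction term of the same fit. That term passed the threshold for all 3 arms, as it did for 35.2% of the miRNAs tested. Since the arms were picked with these values in view, this is a description, and for miR-129-1-3p and miR-129-5p the value is set in part by the floor. The day 14 effect minus the day 9 effect was -2.10 for miR-129-2-3p, whose treated minus control difference was 1.27 at day 9 and -0.83 at day 14. It was -0.97 for miR-129-1-3p (-0.81 at day 9, with treated cells at the floor, and -1.77 at day 14) and -1.51 for miR-129-5p (0 at day 9, with both groups at the floor, and -1.51 at day 14). The call was lost with normexp for miR-129-1-3p (-0.60) and miR-129-5p (-0.64), and with the software's total for miR-129-1-3p (-0.63). With normexp 22 miRNAs in all were called for the interaction, against 108 in the main fit. Leaving out each array in turn gave -2.18 to -2.01 for miR-129-2-3p, -1.08 to -0.89 for miR-129-1-3p and -1.60 to -1.41 for miR-129-5p.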

How the results depend on the processing

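Of 243 values of the arms under an alternative, 225 were counted as unchanged, 15 no longer passed, 3 newly passed and 0 reversed. Unchanged meant the same side of the threshold and, where called, the same direction. Values within a slide have no p-value, and counted as unchanged when within the larger group SD of the main difference. Where both groups were below background, the floor fixed most of these values near 0, so the count of 225 does not measure robustness. No difference of miR-129-2-3p was among the 18, and no array left out changed a call of an arm, but sizes moved: treated minus control for miR-129-2-3p at day 9 was 0.56 with normexp, 0.51 with a floor 4 times higher and 0.73 with the percentile over all probes, against 1.27, and for miR-129-1-3p at day 14 -0.82 with normexp and -0.43 with the floor, against -1.77. For miR-129-1-3p the treated minus control difference at day 9 was -0.22 with normexp, 0.0 with a floor 4 times higher and -0.031 with the mean of probes. Its difference between day 9 and day 14 in treated cells was 0.022, 0.0 and 0.0 under the same alternatives, and that between day 5 and day 9 in control cells 0.15, 0.0 and 0.031. Its interaction was -0.60 with normexp and -0.63 with the software's total. For miR-129-5p the higher floor gave 0.0 for treated minus control at day 14, for the interaction and for control cells between day 9 and day 14, and its interaction was -0.64 with normexp. The software's total gave miR-129-5p 1.05 at day 9 and 1.39 between day 5 and day 9 in treated cells, and miR-129-1-3p 0.90 in that last comparison. Where the higher floor gave 0.0, both groups lay under it, and for the other alternatives the cause was not tested.

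Calls over all miRNAs moved by over 1.5 times as follows. At day 9, 164 miRNAs were called, against 72 with normexp, 92 with the higher floor and 76 with slide as a block, and at day 14, 160, against 58 with normexp and 93 with the floor. For the interaction 108 were called, against 22 with normexp and 70 with no filter. In treated cells 180 were called between day 5 and day 9 (97 with normexp) and 207 between day 9 and day 14 (129 with normexp, 133 with the floor). In control cells 178 were called between day 5 and day 9 (100 with normexp, 100 with the floor, 98 with slide as a block) and 165 between day 9 and day 14 (95 with normexp, 96 with the floor). Arrays left out in turn gave 144 to 183 at day 9 and 81 to 125 for the interaction.

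Scaling set the split of higher against lower calls. At day 9 it was 114 to 50, against 41 to 121 with all probes, 63 to 90 with quantiles and 72 to 95 with the median, and at day 14 119 to 41, against 37 to 78, 69 to 63 and 73 to 64. For the interaction it was 57 to 51, against 59 to 25 with all probes, 63 to 46 with quantiles and 69 to 49 with the median. Treated cells gave 117 to 63 between day 5 and day 9 (75 to 85, 92 to 84 and 98 to 85) and 110 to 97 between day 9 and day 14 (98 to 76, 96 to 101 and 88 to 122), and control cells 77 to 101 (106 to 52, 98 to 78 and 97 to 85) and 88 to 77 (70 to 91, 80 to 95 and 67 to 118).

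Replicate numbers are shared by all groups, and nothing in the labels says that they mark a shared culture. Deviations of same-numbered arrays had a median correlation of 0.02 over 30 pairs, against 0.01 over 60 other pairs. Single pairs ran from -0.57 to 0.51 and from -0.44 to 0.57, so these medians cannot decide whether equal numbers mark a shared culture. With the replicate block 163 miRNAs were called at day 9, 156 at day 14 and 101 for the interaction, and no call of an arm changed. Signals near background limit miR-129-5p and miR-129-1-3p before day 14.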

Other observations

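The gene Mir670, next to Mir129-2 in the RefSeq annotation, was looked at after the values of the arms had been seen. Neither miR-670-3p nor miR-670-5p was above background on any of the 15 arrays, with signals of up to 3.31% and 4.96% of the 75th percentile, on arrays where miR-129-2-3p gave 10.7% to 60.7%. Probes differ in brightness, so the levels of these miRNAs cannot be ordered.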
